A study of Mus musculus with 18 samples.

Results

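Oxidative phosphorylation genes were followed through epidermis from 18 mice, as rows of one count table whose symbol begins with mt- (genes of the mitochondrial genome) or with Nduf, Cox4 to Cox8, Uqcr or Atp5, or is Sdha, Sdhb, Sdhc or Sdhd (genes of the nuclear genome). The rule found 114 of 21011 rows, 23 mitochondrial and 91 nuclear. Of the 16517 genes with enough reads to be tested, 110 were members. All 23 mitochondrial members were tested (13 protein-coding, 2 ribosomal RNAs and 8 transfer RNAs), and so were 87 nuclear members; the pseudogenes Atp5l2-ps and Ndufab1-ps and the isoforms Cox4i2 and Cox8b were too low to be tested, with 28 to 58 counts each over all 18 mice.

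Dorsal skin with resting (telogen) follicles was taken 10 weeks after tamoxifen given at 8 weeks of age, and poly(A)-selected RNA of the scraped-off epidermis was sequenced. KR mice (n = 4) lost Rbpj, the DNA-binding factor through which Notch receptors act, through K14-CreERT, which is driven by a keratin promoter of basal keratinocytes, and were set against 2 KR controls. LR mice (n = 3) lost Rbpj through Lrig1-CreERT2, which is expressed in upper hair follicle and sebaceous gland stem cells, and were set against 3 LR controls. KN1 mice (n = 4) lost Notch1 through a K14 driver (written K14-CreERT1 in the labels) and were set against 2 KN1 controls. Mutants and the controls they were set against share a batch label, and the labels do not give the controls' alleles. Both deletions leave cells of the epidermis outside the driver's reach intact.

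The electron transport chain moves electrons from NADH and succinate to oxygen through complexes I to IV of the inner mitochondrial membrane, and complex V, the ATP synthase, uses the resulting proton gradient. Complexes I, III, IV and V are mosaics of subunits from the mitochondrial and the nuclear genome, whereas complex II is built from nuclear genes only. Mitochondrial genes are transcribed as long precursors that are cut at the transfer RNAs, and in mouse epidermis loss of Tfam, a factor needed to maintain and transcribe the mitochondrial genome, has been reported to disturb keratinocyte differentiation.

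The libraries held 8076316 to 21216169 counted reads. Rbpj lay at 40.9 to 45.8 CPM (counts scaled to a common library size) in KR against 58.1 to 60.8 in KR controls, and at 29.9 to 37.9 in LR against 42.6 to 73.0 in LR controls, without passing the test in either (edgeR adjusted p = 0.135 and 0.0659). Notch1 fell in KN1, to 81.9 to 156 CPM against 172 to 251 in KN1 controls (log2 fold change -0.91 ± 0.19 SE, edgeR adjusted p = 0.0251). In such bulk RNA, fewer cells that carry a transcript and less transcript per cell cannot be told apart. Basal keratinocyte markers summed to between 28446 and 43580 CPM in every mouse, and skeletal muscle markers, the tissue richest in these transcripts, to 5.42 to 22.8 CPM. Summed CPM of 6 genes of the growing hair follicle, listed after the data were seen, ran from 6.43 in LR control 5 to 450 in KN1 2, with high and low mice among KR, LR, KN1 and the controls of KR and LR.

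Libraries were of different kinds. All 11 mutants and LR controls 2 and 3 were named once in the labels. KR control 4 and KN1 control 1 were each sequenced on 2 occasions and merged, and KR control 6, LR control 5 and KN1 control 7 carry a second name with the same ending as the repeat runs. In KR and KN1 every mutant was named once and every control was not, so genotype and kind of library cannot be told apart there; LR alone has controls of the same kind as its mutants. The 13 libraries named once and the other 5 are set apart below for that reason.

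Parts of several mitochondrial genes also stand in the nuclear genome, and these are printed first because the largest differences below fell on them. In the GENCODE M21 transcripts on GRCm38 (mm10), 7 copies lie side by side on the minus strand of chromosome 1, from 24611535 to 24616197, and match mt-Nd4, mt-Nd4l, mt-Nd3, mt-Co3, mt-Atp6, mt-Co2 and mt-Co1 in whole or in part. Every stretch of 100 bases was looked up in all other transcripts: 99.5% of such windows of mt-Co2, 99.5% of mt-Atp6, 99.9% of mt-Co3, 97.6% of mt-Nd3 and 98.5% of mt-Nd4l were found there letter for letter. The share was 60.8% for mt-Nd4, 30.8% for mt-Co1 and 3.19% for mt-Nd2, and 0 for mt-Nd1, mt-Nd5, mt-Nd6, mt-Cytb, mt-Atp8, mt-Rnr1 and mt-Rnr2. The first 5 are called the copied genes here. A read from them fits both places equally well, and the sources used here do not say how such reads were counted. The nuclear copies themselves were not analysed here. A share of 0 does not mean that no copy exists, since copies that differ in letters are missed. Gm4076, for example, matches mt-Nd5 at 95.2% of 954 aligned bases. Sequence between the chromosome 1 copies was not looked up, and by gene order mt-Ts1 and most of mt-Atp8 would fall there.

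A stretch of 90 bases of mt-Co2 (chrM:7213-7302, plus strand), of its chromosome 1 copy Gm28661 (chr1:24615276-24615365, minus strand) and of its chromosome 2 copy Gm13341 (chr2:22587673-22587762, minus strand) is set beside a stretch of 90 bases of mt-Co1 (chrM:5528-5617, plus strand) and of its chromosome 2 copy Gm13340 (chr2:22589358-22589447, minus strand). Capitals mark bases at which a copy differs from the mitochondrial gene: 0 in Gm28661, 2 in Gm13341 and 1 in Gm13340.
mt-Co2: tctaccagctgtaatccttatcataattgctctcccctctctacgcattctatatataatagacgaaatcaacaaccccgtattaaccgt
Gm28661: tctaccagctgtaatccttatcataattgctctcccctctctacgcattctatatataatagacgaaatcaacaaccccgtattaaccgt
Gm13341: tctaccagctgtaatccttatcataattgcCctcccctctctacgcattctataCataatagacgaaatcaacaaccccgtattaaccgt
mt-Co1: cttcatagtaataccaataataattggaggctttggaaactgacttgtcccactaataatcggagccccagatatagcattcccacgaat
Gm13340: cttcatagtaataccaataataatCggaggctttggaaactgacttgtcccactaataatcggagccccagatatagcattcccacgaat

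Mitochondrial members took a smaller share of all counts in KR and KN1 epidermis than in their controls, whereas the share of nuclear members was larger in KR and overlapped with that of the controls in LR and KN1. Mitochondrial members took 0.982%, 1.11%, 1.16% and 1.72% of all counts in KR mice, against 1.87% and 3.17% in KR controls. They took 0.839%, 0.989% and 1.17% in LR mice, against 0.895%, 0.892% and 2.26% in LR controls 2, 3 and 5. They took 0.783%, 0.981%, 0.650% and 0.745% in KN1 mice, against 1.11% and 1.23% in KN1 controls. KR and KN1 lay below all of their own controls, while LR spanned LR controls 2 and 3 and stayed below LR control 5 alone.

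Nuclear members took 0.770%, 0.773%, 0.783% and 0.917% of all counts in KR mice, against 0.644% and 0.714% in KR controls. They took 0.658%, 0.611% and 0.683% in LR mice, against 0.701%, 0.626% and 0.506% in LR controls, and 0.822%, 0.872%, 0.938% and 0.884% in KN1 mice, against 0.899% and 0.960% in KN1 controls. KR mice thus lay above their controls in the nuclear share and below them in the mitochondrial share, and the other groups overlapped in the nuclear share. Counts on mitochondrial members per count on nuclear members came to 1.28 to 1.88 in KR against 2.90 and 4.44 in KR controls, to 1.28 to 1.71 in LR against 1.28, 1.43 and 4.47 in LR controls, and to 0.692 to 1.12 in KN1 against 1.23 and 1.28 in KN1 controls.

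The gap between both sets was taken in each mouse as the mean log2 CPM of the 23 mitochondrial members minus that of the 87 tested nuclear members. It was -1.38, -1.17, -1.02 and -0.83 in KR, against 0.33 and 1.09 in KR controls. It was -1.31, -0.94 and -0.79 in LR, against -1.44, -1.20 and 0.94 in LR controls 2, 3 and 5. It was -1.79, -1.36, -2.01 and -1.94 in KN1, against -0.62 and -0.65 in KN1 controls. The groups did not overlap in KR and KN1 and did in LR, where LR control 5 stood far from the other LR controls. The difference of group means on this log2 scale was -1.81 for KR, -0.45 for LR and -1.14 for KN1, with within-group SDs of 0.338, 0.946 and 0.250. Across kinds of library, the gap was -2.01 to -0.79 in the 13 libraries named once and -0.65 to 1.09 in the other 5. With only the 7 protein-coding members that are not copied genes, without mt-Atp8, the gap overlapped between the kinds over all batches together. It was then 3.08 to 4.61 in the libraries named once and 4.06 to 6.24 in the other 5. Within each batch the kinds did not overlap. KR mice lay at 4.17 to 4.61, against 5.54 and 6.21 in KR controls. Libraries named once of the LR batch lay at 4.09 to 4.52, against 6.24 in LR control 5. KN1 mice lay at 3.08 to 3.87, against 4.07 and 4.06 in KN1 controls. The part of the kind of library in the result was not tested. Without LR control 5 the LR difference turned to 0.28, and without KR control 6 the KR difference was -1.43. Over the 7 protein-coding members described below that are not copied genes, with mt-Atp8 left out, the KN1 difference was -0.59, and as a log2 ratio of summed counts it was -0.50. With the second-named share of a library as covariate, the gap was -0.42 in KR and turned to 0.24 in KN1. This share was assigned by kind of library, with merged libraries midway between the other kinds, and was not measured.

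**Figure D1:**
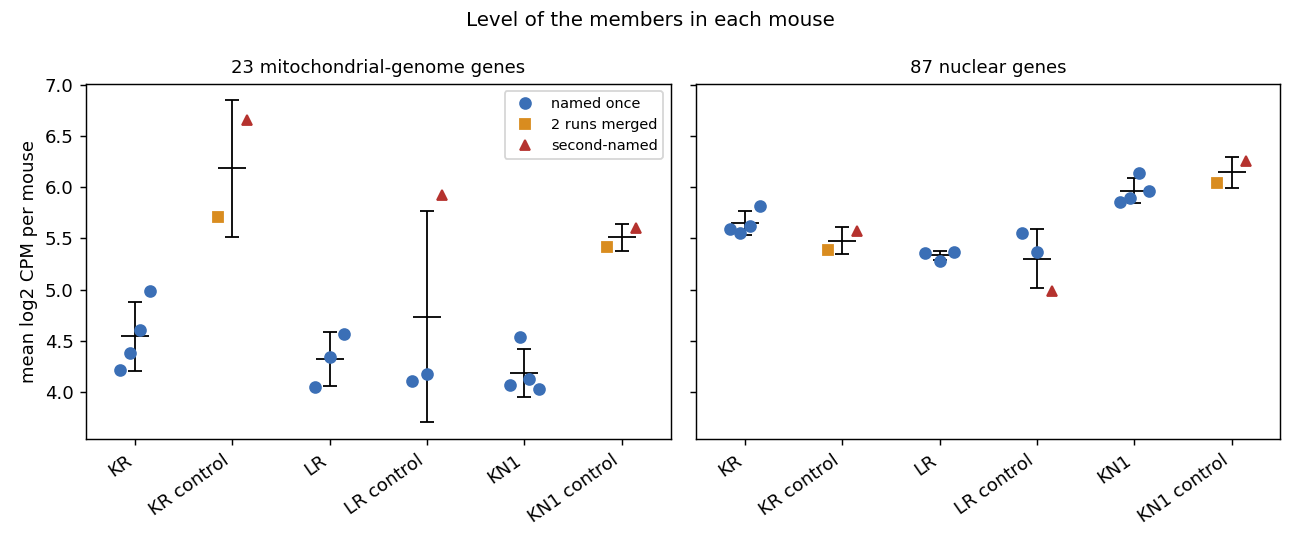
Mean log2 CPM in each mouse of the 23 mitochondrial members (left) and the 87 tested nuclear members (right), by group, with symbols for the kind of library and bars for the group mean ± SD. The mitochondrial mean is 4.02 to 4.99 in the 13 libraries named once and 5.42 to 6.66 in the other 5, while the nuclear means of both kinds overlap. The mean over the 7 protein-coding members that are not copied genes, without mt-Atp8 (not drawn), overlaps over all batches, at 9.21 to 10.4 and 10.1 to 11.8. It does not overlap within a batch. KR mice are at 9.76 to 10.4 against 10.9 and 11.8 in KR controls. Libraries named once of the LR batch are at 9.46 to 9.82 against 11.2 in LR control 5. KN1 mice are at 9.21 to 9.77 against 10.1 and 10.3 in KN1 controls.

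In KR epidermis 7 of 23 mitochondrial members fell and 0 rose (edgeR quasi-likelihood test, Benjamini-Hochberg adjusted p under 0.05 over all genes), where 1.6% of all tested genes were called and 0.902% fell. Their median log2 fold change was -1.44 over all 23, against 0.04 over all tested genes, and 21 were negative. In KN1 epidermis 4 fell and 0 rose, where 1.97% of all tested genes were called and 1.11% fell, with a median of -1.08 against 0.02 and 22 negative. In LR epidermis 0 of 23 passed the edgeR test, where 1.12% of all tested genes were called and 0.248% fell, with a median of -0.76 against -0.00; 8 had an unadjusted p under 0.05, and DESeq2, which gave no p for 4, called 0. Every KR mouse lay below every KR control for 15 of the 23 (19.5% of all tested genes), every KN1 mouse below every KN1 control for 19 (14.3%) and above for mt-Ty alone (13.8%), and 0 separated in LR. The share of all tested genes with an unadjusted p under 0.05 is not reported here, so the unadjusted counts here and below have no background beside them. The counts of called members rest on few mice, and the share of all tested genes called in the same fit follows in brackets. The KR count was 0 without KR 3 (0.116%), and 1 without KR 1 (0.394%) or KR 5 (0.146%). It was 4 without KN1 3 (0.855%) or KN1 4 (0.746%), 11 without LR control 2 (1.9%) and 13 without LR control 5 (8.23%). The KR median was -1.06 with only KR control 4 left and -1.76 with only KR control 6 left. The KN1 count was 1 without KN1 1 (1.67%), KN1 3 (1.22%) or KN1 4 (0.588%). It was 2 without KN1 2 (0.727%) or LR 1 (1.27%) and 9 without LR control 5 (3.89%). The KN1 median was -0.78 with only KN1 control 1 left and -1.15 with only KN1 control 7 left.

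No member passed a test of the difference between mutants (0.00605% of all tested genes did for KR minus LR, 0% for KR minus KN1 and 0.00605% for LR minus KN1). In these edgeR tests the unadjusted p was under 0.05 for 2, 0 and 3 of the 23 mitochondrial members and for 2, 10 and 5 of the 87 nuclear members, in that order, and DESeq2 called 0 of them. A p that misses the threshold does not show that the mutants act alike. Without LR control 5, 3 members differed between KR and LR and 3 between LR and KN1. In that fit 8.23%, 0.724% and 3.89% of all tested genes were called in KR, LR and KN1 against their controls. The share of all tested genes that differed between mutants in that fit is not reported here.

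The copied genes had the largest fold changes. mt-Co2, a catalytic core subunit of cytochrome c oxidase (complex IV), was at 8.18, 6.53, 8.59 and 11.5 CPM in KR, against 70.1 and 180 in KR controls. It was at 7.42, 9.83, 8.02 and 7.00 CPM in KN1, against 102 and 94.3 in KN1 controls. It was at 6.61, 6.46 and 9.04 CPM in LR, against 7.56, 6.32 and 95.2 in LR controls 2, 3 and 5. All 11 mutants and LR controls 2 and 3 thus lay within 6.32 to 11.5 CPM, and the other 5 controls at 70.1 or above. The log2 fold change was -3.84 ± 0.78 in KR (SE, edgeR adjusted p = 0.0369), -3.60 ± 0.79 in KN1 (edgeR adjusted p = 0.0377) and -2.32 ± 0.81 in LR (edgeR adjusted p = 0.184).

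mt-Co3, the third mitochondrial subunit of complex IV, fell by 3.85 ± 0.75 on the log2 scale in KR (edgeR adjusted p = 0.0316) and by 3.65 ± 0.77 in KN1 (edgeR adjusted p = 0.0321). mt-Atp6, the proton channel subunit of ATP synthase, averaged 4.79 ± 1.42 CPM in KR against 73.1 ± 41.2 in KR controls (SD; log2 fold change -3.92 ± 0.77, edgeR adjusted p = 0.0333). In KN1 it averaged 2.95 ± 0.53 CPM against 30.3 ± 4.32, which missed the threshold (log2 fold change -3.36 ± 0.81, edgeR adjusted p = 0.0504). mt-Nd3, a small membrane subunit of complex I, fell in KR (log2 fold change -3.17 ± 0.71, edgeR adjusted p = 0.0401) and KN1 (-3.36 ± 0.78, edgeR adjusted p = 0.0378), at 0.115 to 2.46 CPM in these mutants against 7.24 to 20.1 in their controls. mt-Nd4l, another small subunit of complex I with 398 counts over all mice, had log2 fold changes of -4.51 ± 1.11 in KR and -2.25 ± 1.37 in KN1 and passed the edgeR test in neither (adjusted p = 0.0528 and 0.396). DESeq2 gave no p, which it withholds from a gene with an outlying count, for 4 of the 5 copied genes in any mutant, and called mt-Nd3 in KR and KN1.

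Together the copied genes made up 0.180% to 0.223% of the counts on the 13 mitochondrial protein-coding genes in KR, against 1.01% and 1.39% in KR controls. The share was 0.202%, 0.231% and 0.222% in LR, against 0.221%, 0.199% and 1.06% in LR controls 2, 3 and 5. It was 0.218% to 0.309% in KN1, against 1.92% and 1.72% in KN1 controls. The 13 libraries named once, which are all mutants and LR controls 2 and 3, spanned 0.180% to 0.309%. The other 5, all of them controls, spanned 1.01% to 1.92%. The same order held within complex IV: there were 1.37 to 3.92 counts on mt-Co2 per 1000 on mt-Co1 in the libraries named once and 10.9 to 27.2 in the other 5. The part of the kind of library in these results was not tested.

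**Figure D2:**
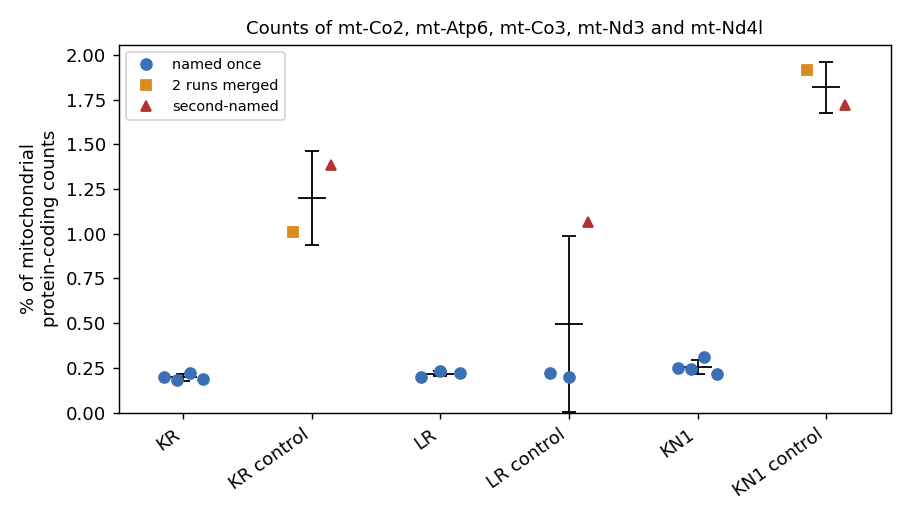
Share of counts on mitochondrial protein-coding genes that fell on mt-Co2, mt-Atp6, mt-Co3, mt-Nd3 and mt-Nd4l, in percent, for each mouse by group, with symbols for the kind of library and bars for the group mean ± SD. LR controls 2 and 3 (0.221% and 0.199%) sit with the mutants, and LR control 5 (1.06%) with the controls of KR and KN1.

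The other mitochondrial protein-coding genes differed less. Leaving out mt-Atp8, which had 68 counts over all mice, the remaining 7 had a median log2 difference to controls of -1.53 for KR, -0.77 for LR and -0.58 for KN1, against -3.85, -2.24 and -3.36 for the copied genes; this split was made by sequence after the data were seen. mt-Nd2 and mt-Nd4, membrane subunits of the proton-pumping arm of complex I, were those of the 7 that fell in KR. mt-Nd2 was at 456, 494, 588 and 778 CPM in KR, against 1356 and 2543 in KR controls (log2 fold change -1.75 ± 0.37, edgeR adjusted p = 0.0362). In KN1 it was at 418, 507, 404 and 429 CPM, against 837 and 1021 in KN1 controls (-1.08 ± 0.38, edgeR adjusted p = 0.144). Every mutant of KR and KN1 lay below its controls for mt-Nd2.

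mt-Nd4 was at 534, 538, 592 and 813 CPM in KR, against 1327 and 2460 in KR controls (log2 fold change -1.61 ± 0.36, edgeR adjusted p = 0.0404). mt-Nd1 forms part of the quinone-binding site of complex I, and none of its 100-base windows was found letter for letter in other transcripts. It was at 1127, 1092, 1199 and 1659 CPM in KR, against 2670 and 5229 in KR controls, and narrowly missed the threshold (-1.64 ± 0.40, edgeR adjusted p = 0.0519). It was at 938, 1050 and 1176 CPM in LR, against 1037, 1022 and 3625 in LR controls 2, 3 and 5. The libraries in which mt-Nd1 was high were thus those in which the copied genes were high. mt-Nd5 and mt-Nd6 had -1.44 ± 0.40 and -1.53 ± 0.41 in KR without passing the edgeR test (adjusted p = 0.0708 and 0.0666); mt-Nd6 lies on the strand opposite to mt-Nd5 and overlaps its end, and nothing states if the counts are strand-specific.

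mt-Cytb, the mitochondrial subunit of complex III, was at 1425, 1502, 1709 and 2422 CPM in KR, against 2462 and 4760 in KR controls (log2 fold change -1.03 ± 0.28, edgeR adjusted p = 0.0671), and averaged 1107 ± 261 CPM in KN1 against 1494 ± 6.75 in KN1 controls (SD). mt-Co1, which holds the oxygen-reducing centre of complex IV, was at 3888, 4762, 4295 and 6951 CPM in KR, against 6399 and 10619 in KR controls. These groups overlapped, since KR 5 exceeded KR control 4 (log2 fold change -0.77 ± 0.33, edgeR adjusted p = 0.184). mt-Atp8, a small ATP synthase subunit encoded between mt-Co2 and mt-Atp6, had -2.92 ± 0.92 in KR at a mean of 0.153 CPM against 1.29 CPM in KR controls (edgeR adjusted p = 0.0924).

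Ribosomal and transfer RNAs of the mitochondrion behaved unevenly. mt-Rnr2, the RNA of the large mitochondrial ribosomal subunit, was at 614, 753, 881 and 1133 CPM in KR, against 802 and 887 in KR controls. It was at 728, 997 and 911 CPM in LR, against 837, 839 and 840 in LR controls, and averaged 1232 ± 76.8 CPM in KN1 against 1443 ± 383 in KN1 controls (SD). All groups overlapped, and the log2 fold change was 0.00 ± 0.20 for KR, 0.07 ± 0.19 for LR and -0.23 ± 0.20 for KN1 (edgeR adjusted p = 0.996, 0.903 and 0.564), and LR control 5, high for most protein-coding genes, was at the level of LR controls 2 and 3 here. mt-Rnr1, the RNA of the small subunit, was at 462, 395, 589 and 509 CPM in KN1, against 796 and 1283 in KN1 controls, just short of the threshold (-1.09 ± 0.28, edgeR adjusted p = 0.0509). The 2 ribosomal RNAs made up 8.97% to 10.9% of mitochondrial counts in KR against 6.37% and 4.55% in KR controls, 12.1%, 13.7% and 11% in LR against 12.6%, 12.4% and 5.89% in LR controls, and 15.8% to 26.6% in KN1 against 16.4% and 20.5% in KN1 controls. The libraries were made by oligo(dT) selection and random priming, which counts RNAs with short or no poly(A) tails incompletely.

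Of the 8 transfer RNAs, mt-Ts1, a serine transfer RNA, fell in both K14-driven mutants. It was at 3.32, 2.37, 3.17 and 3.65 CPM in KR, against 7.86 and 15.8 in KR controls (log2 fold change -1.91 ± 0.32, edgeR adjusted p = 0.012). It was at 1.61, 2.54, 2.35 and 2.52 CPM in KN1, against 9.06 and 9.54 in KN1 controls (-2.03 ± 0.33, edgeR adjusted p = 0.00881). In LR it was at 3.26, 2.93 and 3.12 CPM, against 2.95, 5.08 and 7.68 in LR controls. The groups separated in KR and KN1 and overlapped in LR. mt-Ts1 is 69 bases long and lies on the opposite strand at the end of mt-Co1, towards mt-Co2. The chromosome 1 copies of mt-Co1 and mt-Co2 are neighbours. The sequence between them was not searched, so a nuclear copy of mt-Ts1 was not looked for there. The other 7 (mt-Ta, mt-Te, mt-Tp, mt-Tq, mt-Tt, mt-Tw and mt-Ty) averaged 0.355 to 25.2 CPM per group and passed the test in no mutant; mt-Tp came nearest in KR (-1.29 ± 0.35, edgeR adjusted p = 0.0666).

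**Figure D3:**
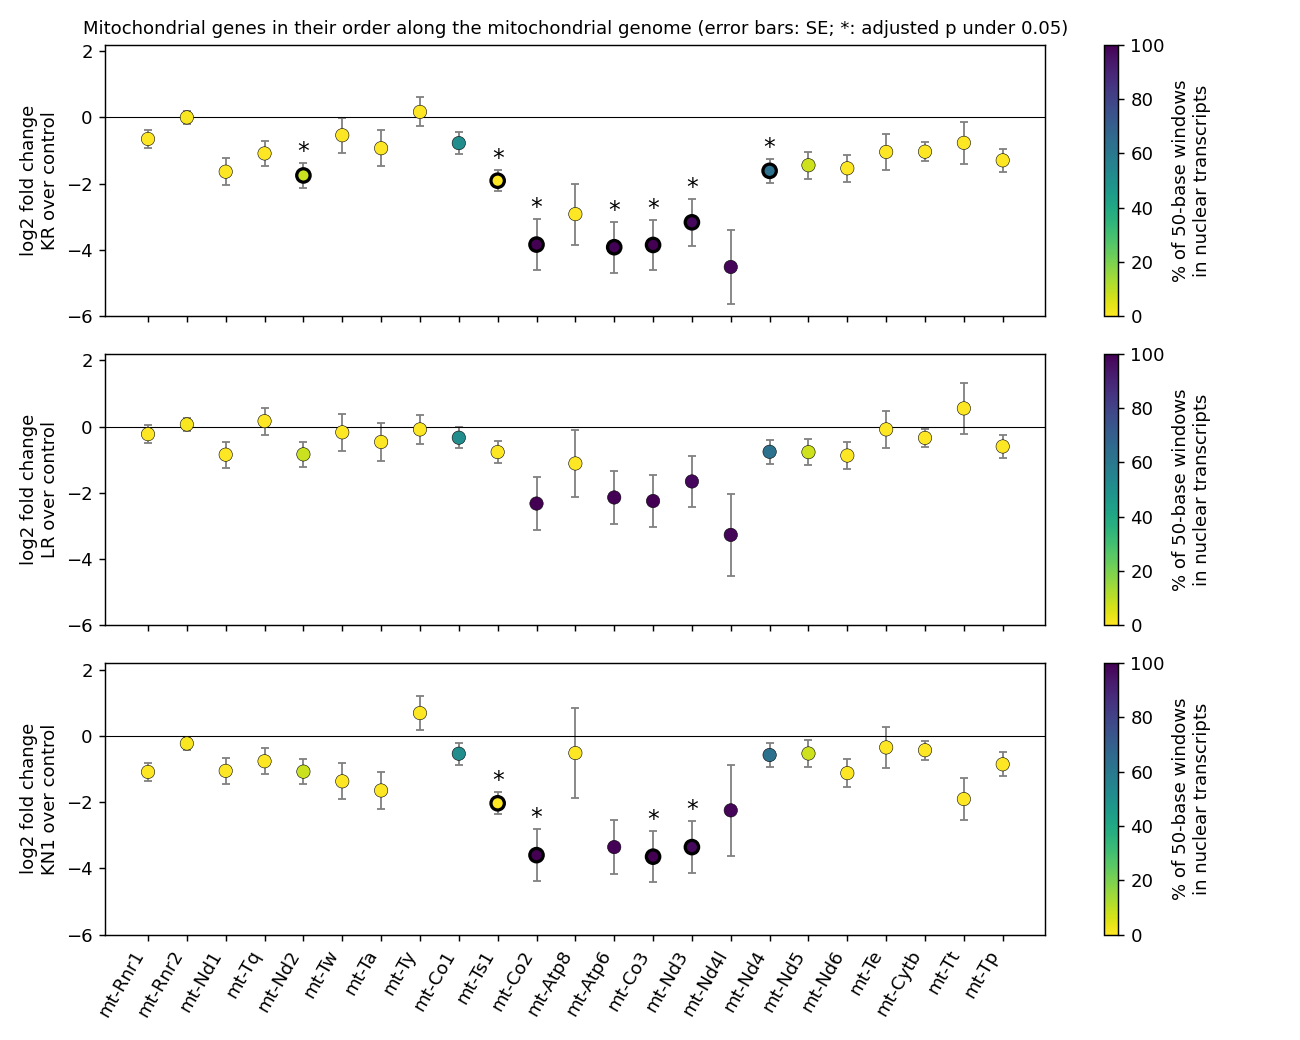
Log2 fold change ± SE of the 23 mitochondrial members over their own controls in KR, LR and KN1, in their order along the mitochondrial genome, coloured by the share of 50-base windows found in other transcripts, with asterisks at an adjusted p under 0.05. The dark points from mt-Co2 to mt-Nd4l stand lowest in all 3 mutants, with mt-Atp8 above its neighbours, while mt-Rnr2 stays near 0.

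LR alone allows a comparison of libraries named once on both sides. Without LR control 5, 22 mitochondrial members were tested, of which 0 passed the edgeR test (0.72% of all genes did) and 0 had an unadjusted p under 0.05, with 4 negative and a median (log2 fold change) of 0.10. mt-Co2 then had 0.08 ± 0.35 (edgeR adjusted p = 0.96), mt-Co1 0.23, mt-Cytb 0.02, mt-Nd1 0.03 and mt-Nd2 -0.04. The 87 nuclear members then had a median of -0.11, with 69 negative, 0 called and 7 with an unadjusted p under 0.05.

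Few nuclear members passed the test. In KR 1 of 87 rose and 0 fell, where 0.696% of all tested genes rose, with 26 negative and a median (log2 fold change) of 0.12. The unadjusted edgeR p was under 0.05 for 16 of them. In KN1 0 rose and 3 fell, where 1.11% of all tested genes fell, with a median of -0.21 and 68 negative. Here 26 had an unadjusted edgeR p under 0.05. The share of all tested genes past this unadjusted cut is not reported here for any mutant. In LR 0 passed the edgeR test, where 1.12% of all tested genes were called, with a median of 0.03 and 35 negative; 1 had an unadjusted p under 0.05 and DESeq2 called 0. Every KR mouse lay above every KR control for 27 of the 87 (19% of all tested genes) and below for 3 (19.5%); every LR mouse lay above every LR control for 1 (10.3%) and below for 5 (9.29%); every KN1 mouse lay above every KN1 control for 4 (13.8%) and below for 22 (14.3%). The share of all tested genes called in the same fit again follows in brackets. The KR count was 0 without KR 1 (0.394%), KR 3 (0.116%), KR 5 (0.146%) or KN1 4 (0.746%). It was 2 without KR 4 (3.95%) and 8 without LR control 5 (8.23%). The KR median was 0.22 with only KR control 4 left and 0.01 with only KR control 6 left. The KN1 count was 0 without KN1 2 (0.727%) or KN1 4 (0.588%) and 5 without LR control 5 (3.89%). The KN1 median was -0.09 with only KN1 control 1 left and -0.34 with only KN1 control 7 left.

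Nuclear members were assigned to complexes by gene symbol alone, and whether each is a subunit was not checked. By complex, their median log2 fold change in KR, LR and KN1 was 0.09, 0.01 and -0.27 for the 38 of complex I (NADH dehydrogenase). For the 4 of complex II (succinate dehydrogenase) it was -0.04, 0.13 and -0.18. It was 0.14, 0.12 and -0.19 for the 8 of complex III, 0.27, 0.09 and -0.05 for the 13 tested of complex IV, and 0.12, 0.03 and -0.27 for the 17 of complex V. The 7 Ndufaf genes, whose products assemble complex I, had 0.29, 0.07 and -0.23. All of these medians stayed far from the -1.75, -0.87 and -1.08 of the 13 mitochondrial protein-coding members. The complexes differed little from each other within a mutant, and every complex had its lowest median in KN1.

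**Figure D4:**
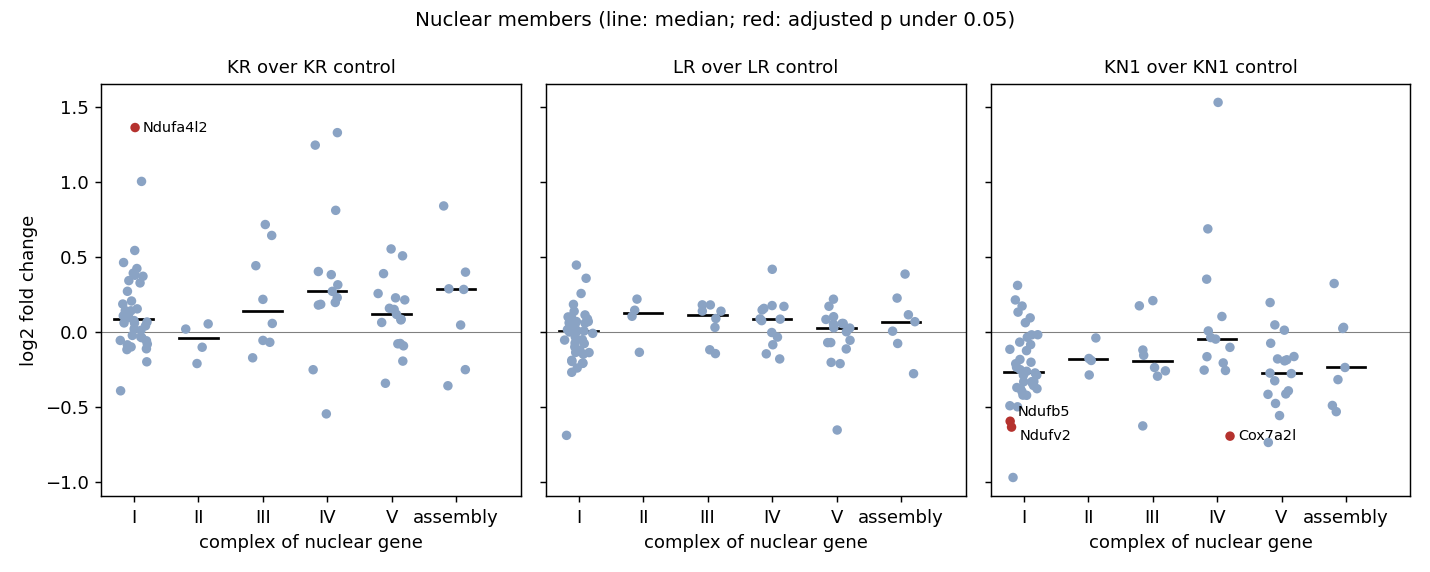
Log2 fold change over own controls of each tested nuclear member in KR, LR and KN1, by complex (points; lines are medians, red points have an adjusted p under 0.05). Ndufa4l2 stands out in KR, and Ndufv2, Cox7a2l and Ndufb5 are those called in KN1.

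Ndufa4l2, a hypoxia-inducible relative of Ndufa4 that has been reported to lower complex I activity, rose in KR. It was at 603, 492, 463 and 577 CPM in KR, against 199 and 216 in KR controls, without overlap (log2 fold change 1.37 ± 0.30, edgeR adjusted p = 0.0369). It was at 534, 356 and 347 CPM in LR, against 408, 332 and 167 in LR controls (0.45 ± 0.27, edgeR adjusted p = 0.434), and at 286, 398, 518 and 443 CPM in KN1, against 313 and 396 in KN1 controls (0.22 ± 0.28, edgeR adjusted p = 0.73). Its fold change differed between KR and LR by 0.92 ± 0.39 and between KR and KN1 by 1.15 ± 0.40, neither past the threshold (edgeR adjusted p = 0.98 and 0.569). The lowest 3 of the 18 mice were both KR controls and LR control 5, all libraries with a second run or name. The call was lost without either KR control, without KR 1, KR 3 or KR 5, and without KN1 4 (edgeR adjusted p = 0.0507 to 0.367). The gene lies on chromosome 10 (127514967 to 127517154, plus strand, GRCm38).

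In KN1 the called members were Cox7a2l, which joins complexes III and IV in supercomplexes, and the complex I subunits Ndufv2, which carries an iron-sulphur cluster of the NADH-oxidising module, and Ndufb5, an accessory subunit of the membrane arm. Cox7a2l was at 189, 170, 188 and 147 CPM in KN1, against 275 and 286 in KN1 controls (log2 fold change -0.69 ± 0.15, edgeR adjusted p = 0.0293). In KR it was at 129, 102, 159 and 130 CPM, against 175 and 205 in KR controls (-0.54 ± 0.15, edgeR adjusted p = 0.0696). Both mutants with a K14 driver thus lay wholly below their controls, while in LR 139, 151 and 132 CPM overlapped with 162, 139 and 164 in LR controls.

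Ndufv2 was at 54.1, 58.7, 64.0 and 58.2 CPM in KN1, against 84.1 and 98.2 in KN1 controls (log2 fold change -0.63 ± 0.14, edgeR adjusted p = 0.0288), and Ndufb5 at 61.6, 54.8, 66.2 and 60.02 CPM, against 85.7 and 97.4 (-0.59 ± 0.13, edgeR adjusted p = 0.0317). These KN1 values still lay above those of most KR and LR mice and their controls: Ndufb5 averaged 49.99 ± 5.94 CPM in KR against 51.2 ± 4.13 in KR controls and 41.5 ± 0.564 in LR against 40.1 ± 5.11 in LR controls (SD). With the 7 controls pooled over batches, Ndufb5 turned to a log2 fold change of 0.07 in KN1. Leaving out KN1 control 7, KN1 2 or KN1 4 ended all 3 calls, KN1 control 1 those of Cox7a2l and Ndufb5, and KN1 1 that of Ndufv2. Uqcrh, the hinge protein of complex III, was named after its value was seen, at 103 ± 15.7 CPM in KN1 against 159 ± 18.1 in KN1 controls, just beyond the threshold (edgeR adjusted p = 0.0507).

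**Figure D5:**
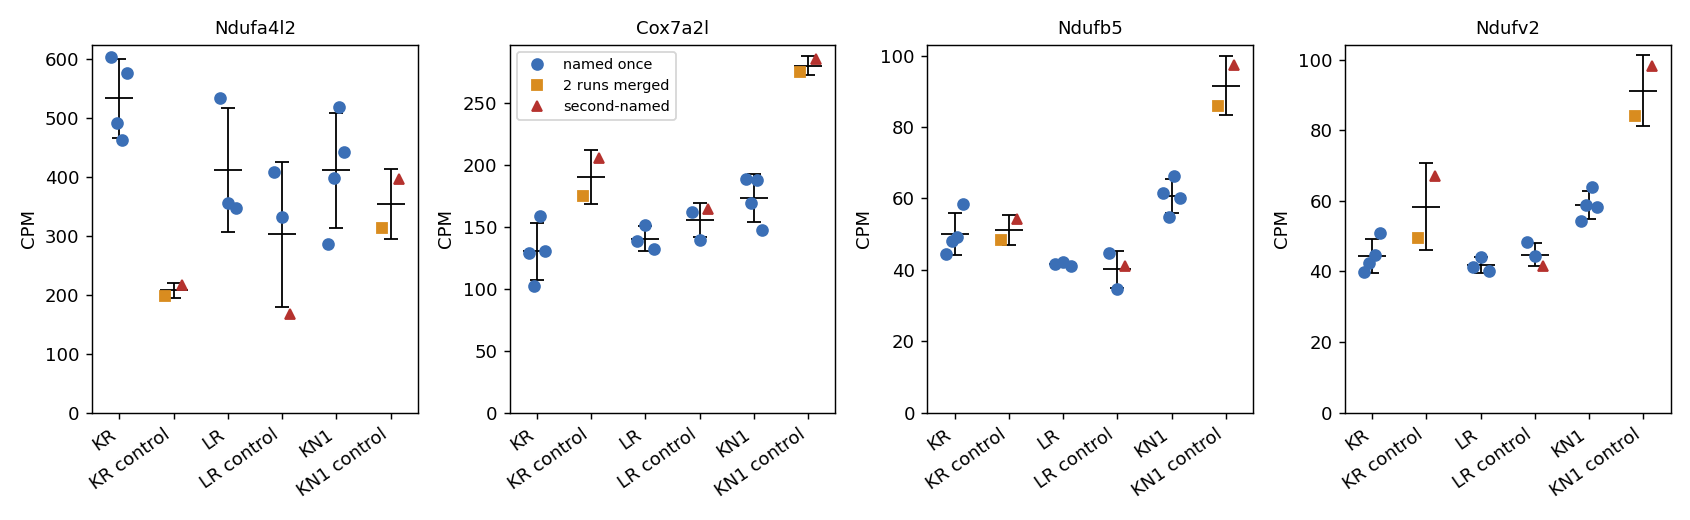
CPM of Ndufa4l2, Cox7a2l, Ndufb5 and Ndufv2 in each mouse by group, with symbols for the kind of library and bars for the group mean ± SD. Ndufa4l2 is high in the 4 KR mice (463 to 603) against KR controls (199 and 216), and the other genes are lower in KN1 than in KN1 controls.

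The most abundant nuclear members by mean CPM were the ATP synthase subunits Atp5b, Atp5a1 and Atp5d (771, 668 and 245), Ndufa4l2 (392), the complex IV subunit Cox4i1 (365) and the complex III core protein Uqcrc1 (251). Atp5b, the catalytic beta subunit, averaged 800 ± 72.2 CPM in KR against 753 ± 96.6 in KR controls, 651 ± 52.2 in LR against 638 ± 38.2 in LR controls and 850 ± 85.7 in KN1 against 952 ± 150 in KN1 controls (SD), overlapping each time. The core subunits Ndufs1, Ndufv1, Sdha, Sdhb, Sdhc, Sdhd, Uqcrc1, Uqcrfs1, Cox4i1, Cox5a, Atp5a1 and Atp5b passed the test in no mutant. Their log2 fold changes lay within -0.37 (Ndufs1 in KN1) and 0.27 (Cox4i1 in KR). Sdha, the flavin-bearing subunit of complex II, was below both controls in all 4 mice of KR and of KN1, at 145 ± 3.84 CPM in KR against 168 ± 20.3 and 142 ± 7.33 in KN1 against 172 ± 11.7 (SD; edgeR adjusted p = 0.318 and 0.225).

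Per kilobase of exon, which allows levels of different genes to be compared, mt-Co1 led with a median of 2470 CPM per kb over the 18 mice, ahead of mt-Cytb (1290) and mt-Nd1 (1203). Ndufa4l2 (363) and Cox6a1 (346) had the highest medians of the nuclear members, with Cox6a1 above Ndufa4l2 in all KN1 mice, both KN1 controls and KR control 4 and below it in the other mice, followed by Atp5a1 (204), Cox4i1 (200), Atp5b (178) and Cox8a (177). mt-Co1 ranged from 1324 to 6873 CPM per kb over the 18 mice, and each gene with a median above that of Ndufa4l2 was mitochondrial. Isoforms typical of muscle and other tissues were low on the CPM scale: Cox4i2 (0.324) and Cox8b (0.15) were not tested, and Cox7a1 (0.886) and Cox6b2 (3.70) passed in no mutant. Cox7a1, a heart and skeletal muscle isoform of complex IV, was at 1.36, 1.50, 2.07 and 1.72 CPM in KN1, against 0.662 and 0.434 in KN1 controls, without overlap (log2 fold change 1.53 ± 0.55, edgeR adjusted p = 0.147).

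Few genes around the chain passed the test. Over all tested genes, 0.696% rose and 0.902% fell in KR, 0.872% rose and 0.248% fell in LR, and 0.86% rose and 1.11% fell in KN1. The adjusted edgeR counts here and those of the cell type markers stand against these shares. The unadjusted counts have no such share beside them. Of 77 tested mitochondrial ribosomal protein genes 0 passed edgeR in KR and LR (13 and 1 with an unadjusted p under 0.05, 0 and 0 by DESeq2) and 2 fell in KN1: Mrpl24 averaged 75.1 CPM in KN1 against 118 in KN1 controls (log2 fold change -0.65 ± 0.13, edgeR adjusted p = 0.02) and Mrps16 32.6 CPM against 48.6 (-0.57 ± 0.14, edgeR adjusted p = 0.0467). Of 31 genes that replicate, transcribe or process the mitochondrial genome 0 passed edgeR in KR, LR or KN1 (6, 3 and 4 with an unadjusted p under 0.05, and 1, 0 and 2 by DESeq2). Tfam averaged 25.1 CPM in KR against 24.5 in KR controls, and Polrmt, the mitochondrial RNA polymerase, 40.1 against 30.9 (edgeR adjusted p = 0.883 and 0.249). Of 39 other subunits and assembly factors 0 passed edgeR either (8, 0 and 7 with an unadjusted p under 0.05 in KR, LR and KN1, and 1, 0 and 1 by DESeq2). The same count of 0 held for 14 citric acid cycle genes (1, 2 and 1 unadjusted, 0 by DESeq2) and 13 mitochondrial stress genes (2, 1 and 1 unadjusted, and 0, 0 and 1 by DESeq2). Of 8 regulators of mitochondrial genes 2 rose in KN1: the coactivator Ppargc1b, at 13.1 CPM against 4.92 in KN1 controls (1.40 ± 0.32, edgeR adjusted p = 0.0356), and the related Pprc1, at 65.2 CPM against 38.8 (0.75 ± 0.15, edgeR adjusted p = 0.0173). Of 18 glycolysis genes Slc2a1, the main glucose transporter of keratinocytes, rose in KR (276 CPM against 152 in KR controls, 0.86 ± 0.20, edgeR adjusted p = 0.0396), with list medians of 0.52, 0.44 and -0.02 in KR, LR and KN1 against 0.04, -0.00 and 0.02 over all genes.

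Other cell types moved with some of these groups. In KN1 3 of 9 epidermal T cell markers fell (Cd3g, Cd3d and Trdc), and the 9 summed to 60.02 to 105 CPM in KN1 against 200 and 137 in KN1 controls and to 42.2 to 62.6 CPM in LR against 85.9, 67.6 and 141 in LR controls. In KR 1 of 8 basal and 1 of 8 Langerhans cell markers rose and 1 of 10 suprabasal markers fell, and in KN1 1 of 8 basal and 1 of 7 melanocyte markers rose. The 10 suprabasal markers had a median log2 fold change of -0.92 in KR, against 0.04 over all tested genes, and were all negative. Every KR mouse lay below both controls for 9 of them (19.5% of all tested genes). They summed to 12971 to 28522 CPM in KR against 32211 and 32246 in KR controls. The 8 Langerhans cell markers had a median log2 fold change of 0.83 in KR and were all positive. Every KR mouse lay above both controls for 7 of them (19% of all tested genes). They summed to 1803 to 2067 CPM in KR against 1407 and 853 in KR controls. In KN1 the sum lay the other way, at 1282 to 1578 CPM against 2505 and 1789 in KN1 controls. In LR it was 1246, 1102 and 1734 CPM, against 822, 747 and 1158 in LR controls. None of the 5 tested muscle, 3 adipocyte, 8 fibroblast, 4 endothelial, 7 macrophage and neutrophil or 11 sebocyte markers passed in any mutant. The nuclear-retained Malat1 averaged 698 CPM in KR against 275 in KR controls and 1478 in KN1 against 531 in KN1 controls, without passing (edgeR adjusted p = 0.12 and 0.114). The part of these cell types and RNAs in the results above was not tested.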

How the data were processed

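Poly(A)-selected RNA of scraped epidermis from 18 mice was sequenced, per the labels' protocols. The deposited values are raw read counts per gene, 1 column per mouse; STAR, HTSeq and DESeq2 and the build mm10 are named in the submitters' processing notes, without versions, and strand settings and the handling of reads with several matches are not given in the sources used here. No row total was below 18.

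Counts were fitted with edgeR 4.0.16 (R 4.3.3) with TMM factors, filterByExpr and robust quasi-likelihood tests on 6 group means over all 18 mice. Each mutant was set against its own controls, two-sided, with Benjamini-Hochberg adjustment over 16517 genes at 0.05 (common biological coefficient of variation 0.225); the deposited counts were used as they stand. The fit was tested on simulated data. CPM values use the same library sizes, and log2 CPM a prior count of 2. Levels per kilobase use the union of exons. Fold changes are mutant over control with SE. The gap carries no test. Replicates are separate mice per the labels, and no pair of libraries agreed within sampling noise (smallest chi-square per degree of freedom within a group 6.41). The numbers of the controls run on across batches and do not pair mice.

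The members and lists were chosen with earlier results of these data known. Named genes were all mitochondrial members, called nuclear members, the 6 highest nuclear members by mean CPM, tissue-restricted isoforms and core subunits, of which not all are reported here. Cox6a2, Cox7b2 and Cox8c were not analysed here. Of the 114 members 112 matched one GENCODE M21 record; Atp5o and Atp5sl did not. Nuclear copies were sought among transcripts only. DESeq2 1.42.0, other scaling, filters, control sets, a library covariate, a replicate block and omission of each mouse served as alternatives.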

Additional observations from a re-analysis of the deposited data

Results flagged for a closer look

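Single mice that stood far from the others of their group were sought in 64 sets of values from groups of 4 mice with Dixon's critical value for the gap to the nearest mouse; chance alone marks some of so many. KR 5 had a nuclear share of 0.917% of counts, with the other KR mice at 0.770% to 0.783%. KN1 2 had 0.578 CPM of mt-Nd4l, with the other KN1 mice at 0.115 to 0.138, and 3.12 CPM of mt-Ty, with the others at 1.95 to 2.07; both rest on few reads. KN1 3 had 1346 CPM of mt-Rnr2, with the others at 1181 to 1208. No pattern beyond these single values was examined.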

How the results depend on the processing

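Another normalization (RLE), library sizes without the mt- rows and a changed filter on low counts left every count of called members within 1.5 times. With each batch fitted alone, 12 mitochondrial and 3 nuclear members were called in KR, where 4.36% of all tested genes were. In KN1 7 and 0 were called, where 0.65% of all tested genes were. With the 7 controls pooled, 7 mitochondrial and 2 nuclear members were called in LR, where 6.53% of all tested genes were. In KN1 13 and 7 were called, where 11.6% of all tested genes were. With the same pooling, 6 members differed between LR and KN1, and the gap was -0.88 in KR, -0.79 in LR and -1.55 in KN1. The share of all tested genes that differed between LR and KN1 with this pooling is not reported here. Without the 3 second-named controls, the median log2 fold change of the nuclear members was 0.22 in KR and -0.09 in KN1. The gap was then -1.41 in KR and 0.28 in LR. With the second-named share of a library as covariate, 0 members were called in either set in KR and in KN1. Of all tested genes 0.0727% and 0.115% were called there. The gap was then -0.42 in KR, 0.17 in LR and 0.24 in KN1. This covariate was assigned by kind of library, with merged libraries midway, and was not measured. It leaves little of the KR and KN1 contrasts to be estimated. DESeq2 called 9 mitochondrial and 4 nuclear members in KR, 0 and 0 in LR and 3 and 6 in KN1. It called 6.58%, 3.31% and 4.96% of all tested genes in KR, LR and KN1. Of the 7 coding members that are not copied genes it called 6 in KR, where edgeR called 2. The gap was -3.55 in KR and -2.45 in KN1 with medians for means, -2.47 and -1.46 with protein-coding members only, -1.25 and -0.50 as a log2 ratio of summed counts, and -0.59 in KN1 with the 7 coding members that are not copied genes, an alternative added after the data were seen. With a replicate block on the numbers 2 and 3 that LR mice and controls share, 0 members were called in either set and the gap was 0.45; the correlations of same-numbered deviations were 0.066 and -0.084, and the block takes the LR comparison from the mice numbered 2 and 3 alone. Ndufb5 in KN1 reversed to 0.067 with the 7 controls pooled.

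With each of the 18 mice left out in turn, mitochondrial calls ranged from 0 to 13 in KR, stayed at 0 in LR and ranged from 0 to 9 in KN1; nuclear calls ranged from 0 to 8, 0 to 0 and 0 to 5. Members that differed ranged from 0 to 3 between KR and LR, 0 to 0 between KR and KN1 and 0 to 3 between LR and KN1. The gap ranged from -2.19 to -1.43 in KR, -0.89 to 0.28 in LR and -1.28 to -1.07 in KN1. The share of all tested genes called moved as well: in KR it was 0.116% without KR 3 and 8.23% without LR control 5. The cause of these changes was not tested. Groups of 2 controls and low counts for mt-Atp8, mt-Nd4l and the transfer RNAs limit what could be detected.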
